A study of Danio rerio with 12 samples.

Results

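Optic nerve crush was compared with a sham operation in whole zebrafish eyes collected 21 days after surgery. This comparison rests on 4 of the 12 arrays of the study, chosen by their titles: 2 pools of crushed eyes (ONX) and 2 pools of sham-operated eyes (SHAM). In ONX eyes the left optic nerve of wild-type adult male fish was exposed and crushed with forceps. In SHAM eyes, the right eyes of the same fish, the eye was drawn from the orbit and put back with its nerve intact, so that each SHAM eye had a contralateral crushed eye. All fish were kept at 28 degrees and anaesthetised with MS222, and each array carried the RNA of 5 pooled whole eyes, with retina, lens, vitreous and the anterior and posterior segments. The other 8 arrays, ONX and SHAM pools of days 4 and 12, supplied part of the estimate of spread and a comparison in time.

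Fish, unlike mammals, regrow a cut or crushed optic nerve. After the injury the retinal ganglion cells, whose axons form the nerve, switch on transcription factors such as atf3, jun and sox11, then genes of the growth cone and the axonal cytoskeleton, such as gap43, tubulins and intermediate filaments, and these genes are turned down as axons reach and reconnect with the brain. Ganglion cells are a small share of the cells of a whole eye. In whole-eye RNA, fewer cells of a type and less RNA per cell cannot be told apart.

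Signals are given as log2(signal + 16). A unit of 1 is thus close to a 2-fold difference in signal for well-measured genes, and more than 2-fold for dim ones. Differences are ONX minus SHAM with the moderated standard error of the limma fit over all 12 arrays (n = 2 pools per group). The 4 arrays were scaled alike: the mean of the spiked hybridisation controls lay between 10.86 and 10.92 and the median signal between 201.4 and 210.1. The mean of the poly-A controls varied more, from 7.59 in ONX pool 1 to 7.86 in SHAM pool 2. Tissue markers were those of a whole eye, with the rod transducin gnat1 between 14.72 and 15.00, the ultraviolet cone opsin opn1sw1 between 14.82 and 15.05, the lens crystallin crygs1 between 15.48 and 15.59 and the pigment epithelium isomerase rpe65a between 13.16 and 13.34.

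Before the results by label, the 4 libraries were compared with each other, because they did not sort by label. Spearman's rho over the 9301 tested probe sets was 0.960 between the ONX pools and 0.961 between the SHAM pools, lower than in all 4 pairs of an ONX and a SHAM pool (0.968, 0.969, 0.970 and 0.973). The number of probe sets that differed at least 2-fold was 165 between the ONX pools and 130 between the SHAM pools. It was 129 and 79 for ONX pool 1 against SHAM pools 1 and 2, and 73 and 49 for ONX pool 2 against the same pools. Pools of the same label therefore differed in more probe sets than any mixed pair did, by 1 probe set in the closest case.

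**Figure D1:**
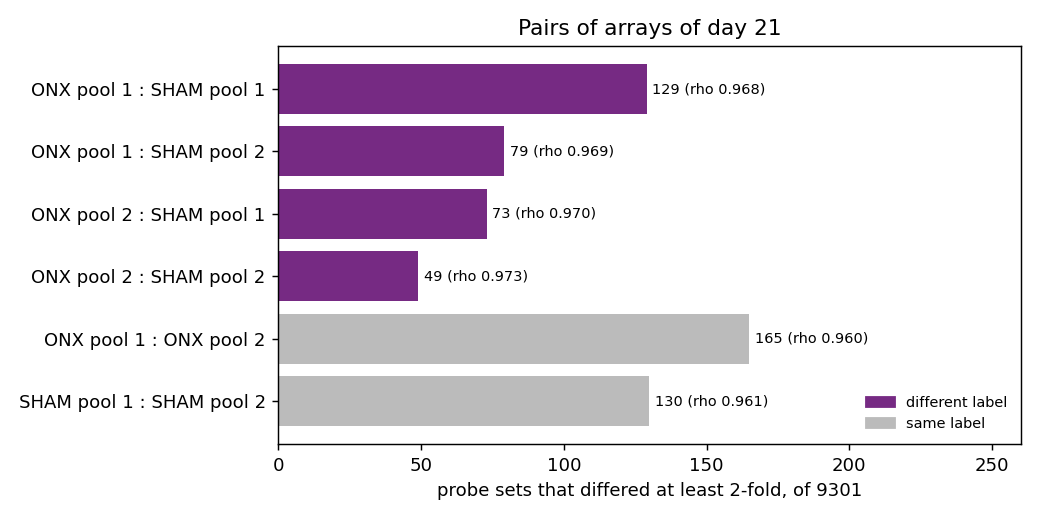
Number of probe sets, of 9301, that differed at least 2-fold (horizontal axis) in each of the 6 pairs of day 21 arrays, with Spearman's rho in brackets; purple bars are pairs of an ONX and a SHAM pool, grey bars pairs of the same label. The ONX pools differed in 165 probe sets and the SHAM pools in 130, and the 4 mixed pairs in 49 to 129.

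By label, no probe set was called at day 21: 0 of 9301 (0.0%) passed limma's test at an adjusted p of 0.05 in either direction, and the smallest adjusted p was 1. At an unadjusted p under 0.05 there were 12 probe sets (0.129%), 8 higher and 4 lower, where an even spread of p-values would give 5%. The count at that unadjusted level was 85 when the spread was taken from the 4 arrays of day 21 alone, with no probe set passing the adjustment. Over probe sets, the gap between the 2 pools of a group had an SD of 0.358 (ONX) and 0.349 (SHAM) at day 21. It was 0.792 and 0.317 at day 4, and 0.626 and 0.477 at day 12. Both ONX pools lay above both SHAM pools in 1116 probe sets (12.0%) and below both in 1070 (11.5%). If the labels were exchangeable, the 2 directions together would be expected in a larger share, 0.333 of probe sets. The differences had an SD of 0.168 over probe sets and ran between -1.46 and 1.07, with 7 probe sets at 2-fold or more. The standard error of a difference, which pools the spread of all 12 arrays, had a median of 0.27. Most changes under 2-fold were therefore not detectable in this fit. The standard error ran up to 2.91 over probe sets. For gap43 it was 1.50 and for atf3 1.18, so that changes well above 2-fold could also go uncalled in such genes. With 2 pools against 2, an exact permutation test of a single gene cannot give a two-sided p below 0.333.

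The genes with the smallest unadjusted p-values are given as values only, since none passed the adjustment. mark2a, a kinase that phosphorylates microtubule-binding proteins, had 8.49 and 8.73 in ONX pools against 8.05 and 7.83 in SHAM pools (difference 0.67 ± 0.20, limma adjusted p = 1). Its groups did not overlap on that probe set, while the other 2 mark2a probe sets differed by 0.33 and -0.01. zfand3, a zinc finger gene, had 8.24 and 8.17 in ONX pools against 7.59 and 7.38 in SHAM pools (0.72 ± 0.23). pdcd2l had the largest positive difference of any gene, with 7.77 and 7.71 in ONX pools against 6.03 and 7.32 in SHAM pools (1.07 ± 0.42), much of it from the low value of SHAM pool 1. The other 7 of the 10 higher genes were emsy, zfpl1, mdm1, mta3, hacd3, mxi1 and mrpl53, with differences between 0.40 and 0.62. mdm1 codes for a microtubule-binding protein, mxi1 for an antagonist of MYC and mrpl53 for a protein of the mitochondrial ribosome.

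On the lower side, sh3d21 had 7.76 and 8.00 in ONX pools against 8.37 and 8.54 in SHAM pools (-0.57 ± 0.24, limma adjusted p = 1). fzd9b, a Wnt receptor of the frizzled family, had 6.96 and 7.20 in ONX pools against 8.13 and 7.66 in SHAM pools (-0.81 ± 0.34). The other 8 were si:dkey-229b18.3, fcho2, wdr77, lhfpl2a, oxct1a, ptpn11a, cant1a and zgc:86811, with differences between -0.60 and -0.40. fcho2 takes part in clathrin-mediated endocytosis, oxct1a in the use of ketone bodies, and ptpn11a codes for the tyrosine phosphatase Shp2. On the chosen probe sets of all 20 genes both ONX pools lay on the same side of both SHAM pools, which the choice by p-value favours. Other probe sets of a gene could differ, as in mark2a. Another ptpn11a probe set differed by -0.11 in the pools numbered 1 and by 0.50 in those numbered 2.

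No growth or injury gene passed the test by label, and in several of them the pools of a label differed by more than the labels did. gap43, the growth cone protein used as a marker of regrowing axons, had 7.93 and 9.38 in ONX pools against 10.15 and 9.18 in SHAM pools (-1.01 ± 1.50, limma adjusted p = 1). The library labelled SHAM pool 1 was the highest of the 4 and ONX pool 1 the lowest, with ONX pool 2 and SHAM pool 2 close together between them. Without SHAM pool 1 the difference was -0.52, and without ONX pool 1 it was -0.29. At day 4 the same probe set had 12.09 and 12.22 in ONX pools against 7.65 and 7.73 in SHAM pools. At day 12 it had 7.95 and 12.32 in ONX pools against 12.68 and 7.85 in SHAM pools. In this gene the pools numbered 1 of that day thus went against their labels. tubb5 split alike at day 12, with 8.98 and 13.35 in ONX pools against 13.52 and 9.40 in SHAM pools. So did tmsb, marcksa, prph, atf3 and sox11b. mbpa had another split, with 12.88 and 11.34 in ONX pools against 10.76 and 10.02 in SHAM pools. The wide gaps of day 12 entered the gap43 standard error of 1.50, which is therefore not the spread of day 21 alone. Whether pools of days 12 or 21 were exchanged before deposit cannot be told from these values, and every ONX minus SHAM difference here takes the labels as given. Relative to the mean of the day 4 SHAM pools, gap43 on the day 21 arrays was 0.24 higher in ONX pool 1 and 1.69 higher in ONX pool 2, and 2.46 and 1.49 higher in SHAM pools 1 and 2.

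Other genes of the regrowing axon had the same lowest and highest array. tubb5, a beta tubulin, had 9.45 and 10.46 in ONX pools against 11.54 and 10.64 in SHAM pools (-1.14 ± 1.38, limma adjusted p = 1). Its second probe set had 5.98 and 7.99 in ONX pools against 8.26 and 7.25 in SHAM pools (-0.78 ± 1.12). tmsb, a thymosin that binds actin monomers, had 6.56 and 9.25 in ONX pools against 9.67 and 7.97 in SHAM pools (-0.92 ± 1.92). The gap between the 2 ONX pools, 2.70, was larger than the difference between the labels, and without ONX pool 1 the difference was 0.43. marcksa, a substrate of protein kinase C in growth cones, had 6.86 and 7.70 in ONX pools against 8.63 and 7.72 in SHAM pools (-0.90 ± 0.96). prph, peripherin, an intermediate filament protein of ganglion cell axons, had 5.80 and 7.02 in ONX pools against 8.34 and 6.54 in SHAM pools (-1.03 ± 1.37). Its second probe set had the most negative difference of all probe sets, with 6.22 and 7.19 in ONX pools against 8.31 and 8.03 in SHAM pools (-1.46 ± 1.16). In each of these genes ONX pool 1 was the lowest of the 4 arrays and SHAM pool 1 the highest. The prph value of 5.80 in ONX pool 1 stands for a dim signal of 39.6. The filter on mean signal over the 12 arrays lay at 135.

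Of the 23 tested genes of the axon growth list, 0 were called, and at day 21 no gene of the 32 lists was called or had an unadjusted p under 0.05 (12 of 9301 probe sets did). SHAM pool 1 was the highest array in 13 of the 23, against 25.7% of all 5967 tested genes, and ONX pool 1 the lowest in 11, against 25.7%. The list had a median difference of -0.06, against 0.00 over all tested genes, with 19 negative and 4 positive. Both ONX pools lay below both SHAM pools in 4 of the 23, marcksa and stmn2a among them, and above in 0, against 11.3% and 11.6% of all tested genes. The microtubule regulators stmn2a (-0.55 ± 0.67) and stmn4 (-0.50 ± 0.85) were likewise lowest in ONX pool 1 and highest in SHAM pool 1, whereas the abundant members marcksl1b (-0.03 ± 0.20) and stmn1b (-0.01 ± 0.25) varied little among the 4 arrays. SHAM pool 1 was also the highest array in all 11 tubulins, whose median difference was -0.14, and 2 of them, tubb5 and tuba4l, were lower in both ONX pools than in both SHAM pools, as were 11.3% of all tested genes. Near-identical tubulin copies can share probe sequence, so that these 11 may not be separate measurements. The third intermediate filament gene, inaa, had 12.52 and 12.47 in ONX pools against 12.29 and 12.64 in SHAM pools, with the opposite order in the pools numbered 1.

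**Figure D2:**
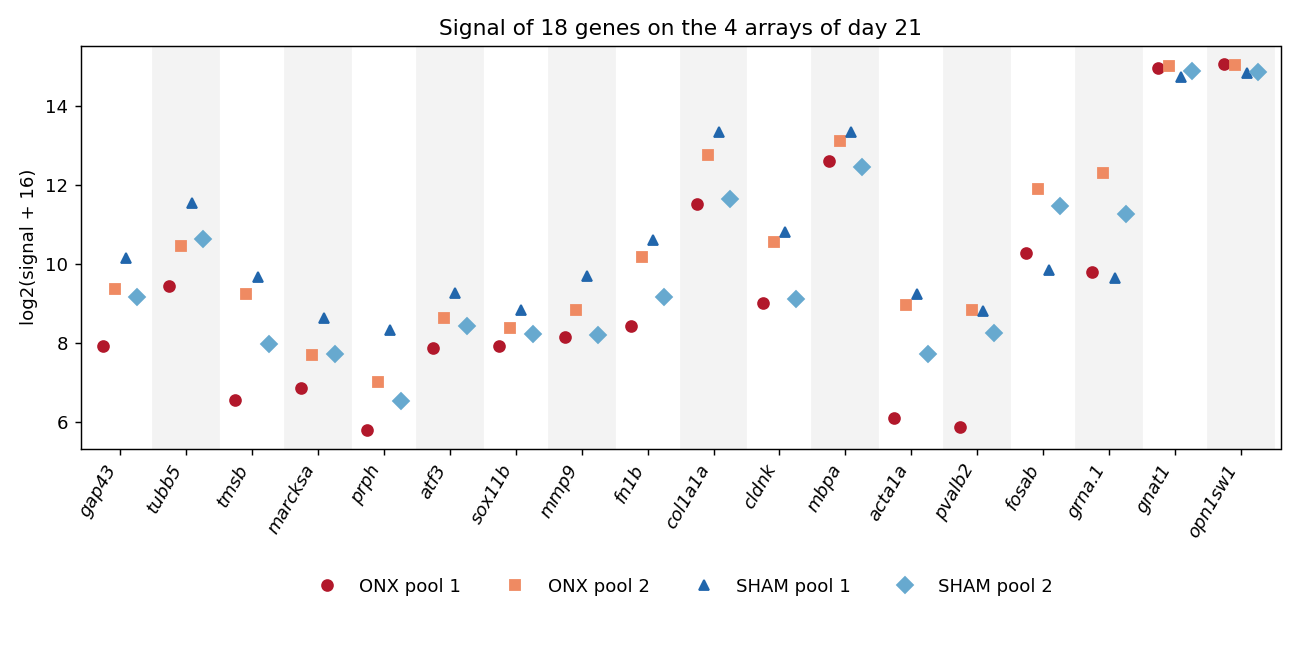
Signal as log2(signal + 16) (vertical axis) of 18 genes on the 4 arrays of day 21, 1 point per pool, ONX pools in red tones left of SHAM pools in blue tones. In gap43 to fn1b ONX pool 1 is lowest and SHAM pool 1 highest, in fosab and grna.1 the pools numbered 2 of both labels are high, and gnat1 and opn1sw1 are nearly level.

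Transcription factors of the injury response varied in more than 1 way. atf3, which is induced in injured neurons, had 7.88 and 8.64 in ONX pools against 9.28 and 8.43 in SHAM pools (-0.59 ± 1.18, limma adjusted p = 1). sox11b, a factor of immature and regrowing neurons, had 7.94 and 8.39 in ONX pools against 8.83 and 8.23 in SHAM pools (-0.36 ± 0.85), and jun 10.12 and 10.58 in ONX pools against 10.85 and 10.33 in SHAM pools (-0.24 ± 0.64). On these probe sets, the brightest of each gene, the lowest array was ONX pool 1 and the highest SHAM pool 1. The other probe sets varied: sox11b was lowest in SHAM pool 2 on one (7.54 and 7.86 in ONX pools against 8.44 and 7.35 in SHAM pools) and highest in SHAM pool 2 on another (7.33 and 7.54 against 7.68 and 7.84), and the second jun probe set had 8.73 and 9.30 in ONX pools against 9.44 and 8.73 in SHAM pools. At day 4 the atf3 values were 11.37 and 11.94 in ONX pools against 7.71 and 7.72 in SHAM pools, and all 4 values of day 21 lay between those levels. stat3, the transducer of cytokine signals, differed by -0.15 ± 0.38, klf6a by -0.10 ± 0.40 and sox11a by -0.19 ± 0.53. Of its feedback inhibitors, socs3a had 10.98 and 11.92 in ONX pools against 11.02 and 11.62 in SHAM pools, high in the pools numbered 2 of both labels. Over the 26 tested factors the median difference was -0.02, with 13 positive and 13 negative, and ONX pool 1 was the lowest array in 16.

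The differences of the 2 pool numbers were opposite more often than alike. ONX minus SHAM within the pools numbered 1 and within those numbered 2 had the same sign in 3674 of 9301 probe sets (39.5%), and Pearson's r over probe sets was -0.394. With the pools matched the other way, ONX pool 1 with SHAM pool 2, the same sign was seen in 3978 (42.8%), with r = -0.366. These values are descriptions across probe sets, which are not independent replicates, and both rest on the same 4 libraries. No probe set was 2-fold higher, and none 2-fold lower, in ONX in both same-numbered pairs, while 25 were 2-fold lower in pool 1 and 2-fold higher in pool 2, and 2 the other way round. For gap43 the difference was -2.22 in pool 1 and 0.20 in pool 2, and for tmsb -3.12 and 1.28. The labels do not say whether same-numbered pools hold the eyes of the same fish.

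**Figure D3:**
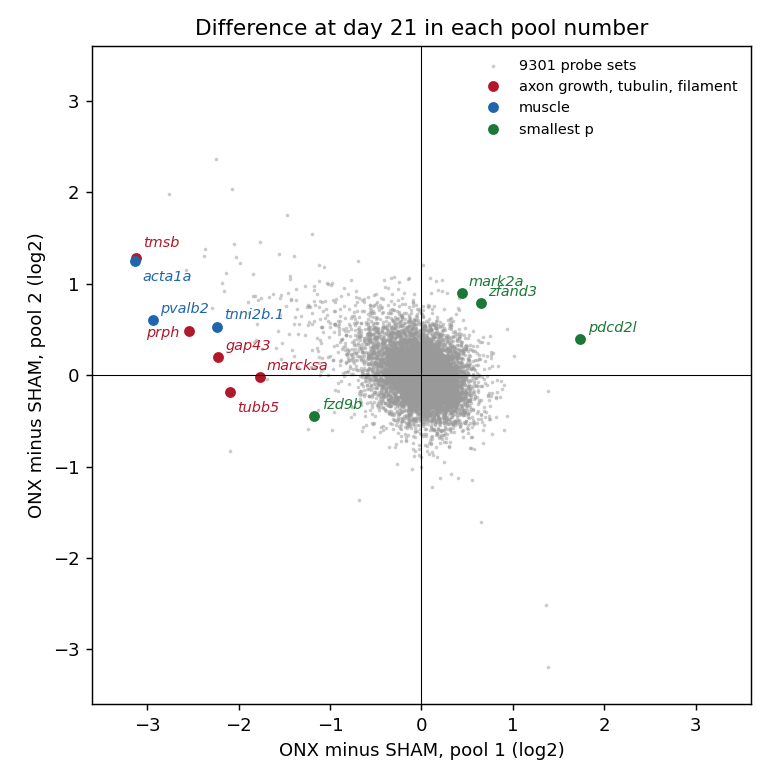
Difference ONX minus SHAM (log2) in the pools numbered 1 (horizontal axis) against that in the pools numbered 2 (vertical axis), 1 grey point per tested probe set, with growth genes in red, muscle genes in blue and genes of small p in green. The cloud leans to the upper left (r = -0.394), where tmsb and acta1a lie, and mark2a, zfand3 and pdcd2l, chosen by their small p, have a positive difference in both.

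Genes of immune cells, muscle, myelin and matrix deviated further between the arrays, in the median of the list, than the axon growth genes did (-0.07 and 0.02 in ONX pools, 0.14 and -0.01 in SHAM pools). In the microglia and macrophage list the median deviation from the mean of the 4 arrays was -0.42 in ONX pool 1 and 0.35 in ONX pool 2, and 0.23 and -0.18 in SHAM pools 1 and 2. ONX pool 1 was the lowest array in 19 of the 24 genes and ONX pool 2 the highest in 15. lcp1, an actin-bundling protein of leukocytes, had 8.71 and 9.92 in ONX pools against 9.52 and 9.03 in SHAM pools (0.04 ± 0.61, limma adjusted p = 1), and spi1b, the myeloid factor PU.1, had 7.04 and 8.06 in ONX pools against 8.05 and 7.64 in SHAM pools (-0.30 ± 0.64). The summed signal of the 24 genes was 31151 and 45576 in ONX pools and 40748 and 34342 in SHAM pools, with no member at 0. The median difference by label was -0.05.

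The eye muscle list had the widest median gap between the ONX pools of the 32 lists, at -0.83 for pool 1 minus pool 2. pvalb2, a calcium buffer of fast muscle, had 5.88 and 8.85 in ONX pools against 8.82 and 8.25 in SHAM pools (-1.17 ± 1.25, limma adjusted p = 1), the most negative difference of any gene represented by its brightest probe set. acta1a, skeletal muscle actin, had 6.11 and 8.97 in ONX pools against 9.24 and 7.72 in SHAM pools (-0.94 ± 1.39), and its difference without ONX pool 1 was 0.49. The troponin gene tnni2b.1 had 8.16 and 10.28 in ONX pools against 10.39 and 9.74 in SHAM pools. ONX pool 1 was the lowest array in 21 of 26 eye muscle genes and ONX pool 2 the highest in 20, and the summed signal was 49592 and 81559 in ONX pools against 72723 and 62746 in SHAM pools. No member was at 0. The growth genes were lowest in the same ONX pool 1 that was lowest in muscle and immune genes, and the part of the amount of muscle or immune tissue in these values was not tested.

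The myelin list split the arrays crosswise. cldnk, a claudin of myelinating glia in zebrafish, had 9.03 and 10.57 in ONX pools against 10.80 and 9.12 in SHAM pools (-0.15 ± 0.56, limma adjusted p = 1). ONX pool 2 and SHAM pool 1 were thus high and the other 2 arrays low, with gaps of 1.54 within ONX and 1.68 within SHAM. cd59a (11.89 and 13.26 in ONX pools against 13.45 and 11.94 in SHAM pools) and olig2, a factor of the oligodendrocyte lineage (7.00 and 8.26 in ONX pools against 8.27 and 7.29 in SHAM pools), had the same pattern. The major myelin gene mbpa had 12.60 and 13.10 in ONX pools against 13.34 and 12.45 in SHAM pools (-0.04 ± 0.46). In all 8 tested genes the difference had opposite signs in the 2 pool numbers, and the summed signal was 12416 and 22849 in ONX pools against 26224 and 12245 in SHAM pools.

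Matrix genes were highest in SHAM pool 1, in 28 of 36 genes, with a median difference of -0.24. The fibronectin gene fn1b had 8.44 and 10.17 in ONX pools against 10.62 and 9.16 in SHAM pools (-0.59 ± 1.00, limma adjusted p = 1). col1a1a, type I collagen, had 11.51 and 12.75 in ONX pools against 13.35 and 11.64 in SHAM pools (-0.37 ± 0.97), and without SHAM pool 1 its difference was 0.49. mmp9, a matrix metalloprotease, had 8.16 and 8.85 in ONX pools against 9.71 and 8.20 in SHAM pools (-0.45 ± 0.89), and without SHAM pool 1 it was 0.31. tnn, tenascin N, had the smallest p of the list, with 8.32 and 8.60 in ONX pools against 9.56 and 9.19 in SHAM pools (-0.91 ± 0.54, unadjusted p = 0.122). The skeletal collagens col10a1a (9.41 and 8.72 in ONX pools against 10.62 and 7.97 in SHAM pools) and col10a1b (9.46 and 8.54 against 10.70 and 7.99) had the widest gaps between the SHAM pools, at 2.65 and 2.71. Both ONX pools lay between the SHAM pools in each.

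**Figure D4:**
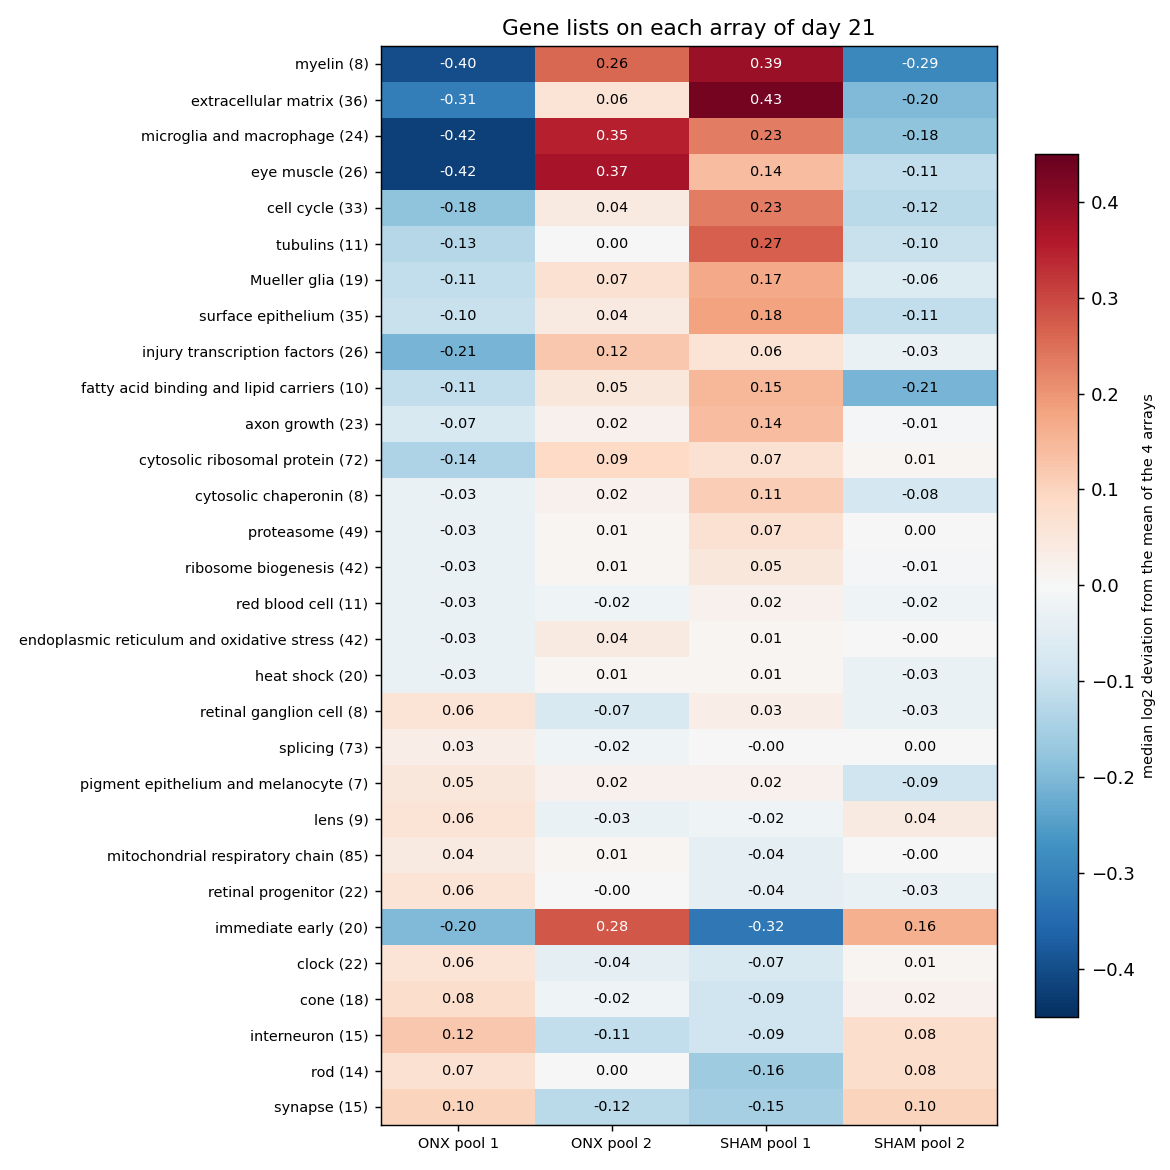
Median deviation (log2) of each gene list from its mean over the 4 day 21 arrays, ONX pools left of SHAM pools, with the number of tested genes in brackets, for lists of at least 7 tested genes; red is above the mean and blue below. Myelin, matrix, immune and muscle lists are low in ONX pool 1 (-0.31 to -0.42) and above the mean in SHAM pool 1 (0.14 to 0.43). In the immune and muscle lists ONX pool 2 is higher still (0.35 and 0.37). Immediate early genes are high in the pools numbered 2 of both labels.

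Neuronal lists shifted less and partly in the other direction. In all 14 rod genes ONX pool 1 was above SHAM pool 1, and SHAM pool 1 was the lowest array in 10. ONX pool 2 was above SHAM pool 2 in only 3 of the 14, and SHAM pool 2 was the highest array in 7. The median difference of the list was 0.08, and 3 of the 14 had both ONX pools above both SHAM pools (11.6% of all tested genes). gnat1, rod transducin, had 14.95 and 15.00 in ONX pools against 14.72 and 14.88 in SHAM pools (0.18 ± 0.23, limma adjusted p = 1). On its second probe set the labels overlapped, with 14.03 and 13.94 in ONX pools against 13.92 and 14.01 in SHAM pools (0.02 ± 0.21). Of 18 cone genes, 5 had both ONX pools above both SHAM pools, against 11.6% of all tested genes, and the median difference of the list was 0.07. ONX was above SHAM in 17 of the 18 in the pools numbered 1, but in 5 in the pools numbered 2. opn1sw1 had 15.05 and 15.02 in ONX pools against 14.82 and 14.85 in SHAM pools (0.20 ± 0.24), and tbx2b, a factor for ultraviolet cones, 10.11 and 10.18 in ONX pools against 9.82 and 9.98 in SHAM pools (0.25 ± 0.24). The green cone opsin opn1mw1 stood out in ONX pool 1 alone, with 12.72 and 11.34 in ONX pools against 11.33 and 11.51 in SHAM pools. The interneuron genes (15, median difference 0.03) and synapse genes (15, median 0.03) were high in ONX pool 1 and SHAM pool 2 and low in the other 2 arrays, as in gad1b, an enzyme of GABA synthesis, with 12.93 and 12.33 in ONX pools against 12.46 and 12.59 in SHAM pools.

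Of 27 listed ganglion cell genes, 13 were found on the array and 8 passed the filter on low signal, with a median difference of -0.02. thy1, a surface protein of ganglion cells in mammals, had 10.64 and 10.84 in ONX pools against 11.19 and 10.77 in SHAM pools (-0.24 ± 0.57, limma adjusted p = 1), and the homeobox gene isl1a had 10.52 and 10.20 in ONX pools against 10.18 and 10.39 in SHAM pools (0.07 ± 0.20). Among 19 Mueller glia genes, with a median of -0.07, gfap, the filament of reactive glia, had 8.96 and 9.18 in ONX pools against 9.68 and 8.63 in SHAM pools (-0.09 ± 0.44), and glutamine synthetase glula 13.37 and 13.00 in ONX pools against 13.30 and 13.27 in SHAM pools (-0.10 ± 0.24). Cell cycle genes had a median of -0.15 over 33 genes and were highest in SHAM pool 1 in 19. pcna, the replication clamp, had 10.53 and 10.80 in ONX pools against 11.03 and 10.78 in SHAM pools (-0.24 ± 0.28), and the proliferation marker mki67 6.61 and 7.20 in ONX pools against 7.80 and 6.92 in SHAM pools (-0.46 ± 0.59). The surface epithelium genes, 35 tested, were highest in SHAM pool 1 in 25 and differed by a median of -0.07.

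A separate set of genes went with the pool number in both labels. fosab, the immediate early gene c-fos, had 10.27 and 11.90 in ONX pools against 9.84 and 11.46 in SHAM pools (0.44 ± 0.62, limma adjusted p = 1), and its other 3 probe sets had the same order. The gaps between the pools were 1.63 in ONX and 1.62 in SHAM, and the difference was 0.43 in pool 1 and 0.44 in pool 2. grna.1, of the granulin family, had 9.81 and 12.30 in ONX pools against 9.64 and 11.27 in SHAM pools (0.59 ± 1.18), and cdc42se1, a small effector of CDC42, 7.17 and 9.59 in ONX pools against 7.42 and 9.36 in SHAM pools (0.00 ± 0.76). The immediate early gene ier2a (8.61 and 9.76 in ONX pools against 8.57 and 9.66 in SHAM pools) and the bZIP factor cebpb (9.38 and 10.79 in ONX pools against 9.37 and 10.29 in SHAM pools) were also high in both pools numbered 2. Of the 20 immediate early genes tested, ONX pool 2 was highest in 9 and SHAM pool 1 lowest in 10, and the median difference by label was 0.06. egr1, with 9.50 and 10.25 in ONX pools against 9.09 and 9.53 in SHAM pools (0.56 ± 0.40), had the largest difference of the list. Another egr1 probe set differed by -0.10 in the pools numbered 1 and by 0.80 in those numbered 2. Over all tested probe sets the pool gaps of the 2 labels were nearly unrelated (Pearson's r = -0.028 across 9301 probe sets).

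The day 21 arrays were also read on the probe sets that limma called at day 4, in arrays that this choice did not use, although the filter and the estimate of spread were shared. Of 9301 probe sets, 492 (5.29%) were higher and 1090 (11.7%) lower in ONX at day 4. In the 492, both ONX pools of day 21 lay above both SHAM pools in 39 (7.93%, against 12.0% of all probe sets) and below in 72 (14.6%, against 11.5%). SHAM pool 1 was the highest of the 4 arrays in 248 of them (50.4%, against 24.6%), and ONX pool 1 the lowest in 40.9%, against 24.1%. SHAM pool 2 was the lowest in 36.2%, against 24.1%, so that the SHAM pools went opposite ways. In the 1090, SHAM pool 1 was the lowest in 52.8%, against 26.3%, and ONX pool 1 the highest in 49.0%, against 27.1%. SHAM pool 2 was the highest in 36.6%, against 25.8%. Both ONX pools lay above both SHAM pools in 149 of the 1090 (13.7%, against 12.0%) and below in 49 (4.5%, against 11.5%). The sizes were small: the median deviation of the 492 from the 4-array mean was -0.079 and 0.041 in ONX pools 1 and 2, and 0.121 and -0.071 in SHAM pools 1 and 2, while their median difference was 1.18 at day 4. The 492 included 23 of the 33 cell cycle genes, 16 of 42 ribosome biogenesis genes and 7 of 24 microglia and macrophage genes, and no eye muscle gene. Among the 1090 were 14 of 15 synapse genes, 14 of 15 genes of interneurons, 12 of 14 of rods and 16 of 18 of cones. ONX pool 1 of day 4 carried oocyte transcripts, although the fish are described as male. The median of 20 oocyte genes was 12.69 in that pool. On the day 21 arrays it was 4.82 and 5.18 in ONX pools and 4.95 and 5.27 in SHAM pools. The source of these transcripts and their part in the day 4 calls were not tested.

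**Figure D5:**
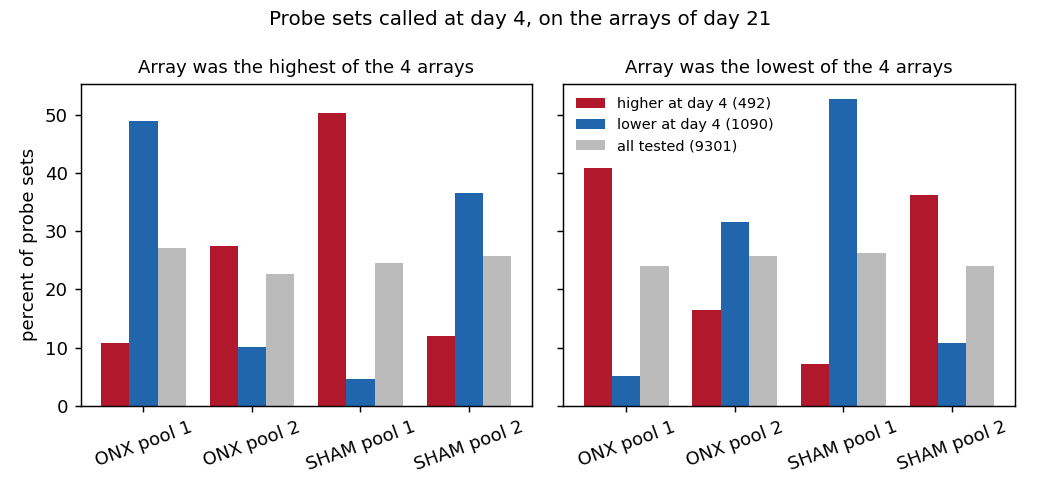
Percent of probe sets (vertical axis) in which each day 21 array was the highest (left panel) or the lowest (right panel) of the 4, for the 492 probe sets higher in ONX at day 4 (red), the 1090 lower (blue) and all 9301 tested (grey). SHAM pool 1 was the highest array in 50.4% of the first set and the lowest in 52.8% of the second. SHAM pool 2 was the lowest in 36.2% of the first set and the highest in 36.6% of the second.

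The ONX effect at day 21 was set against that at day 4 in an interaction test. No probe set was called (0 of 9301, 0.0%, limma, smallest adjusted p = 0.128), while 1998 (21.5%) had an unadjusted p under 0.05. Leaving out ONX day 4 pool 2, so that the pool with oocyte transcripts stood alone for ONX at day 4, gave 2447 calls. The 5 genes of smallest p had larger differences at day 4 than at day 21, which the choice by interaction p favours. ckmt2a, a mitochondrial creatine kinase, differed by 0.02 at day 21 and by -1.62 at day 4 (interaction 1.64 ± 0.26, limma adjusted p = 0.128). prph2b, a structural protein of photoreceptor outer segments, differed by 0.19 and -1.72 (1.90 ± 0.32). gatd3l differed by 0.08 at day 21 and -1.46 at day 4, pygl, glycogen phosphorylase, by -0.25 and 1.47, and si:ch211-156b7.4 by -0.43 and 1.94. Another pygl probe set differed at day 21 by -0.03 in the pools numbered 1 and by 0.73 in those numbered 2. At day 12 the pools numbered 1 went against their labels in gap43 and several other growth and injury genes. The pools of a label then offset each other, and the day 12 difference of gap43 was -0.13. Against that day, 0 probe sets were called (0.0%, limma, smallest adjusted p 1) and 21 (0.226%) had an unadjusted p under 0.05. The 5 of smallest p there were zfand3, six7, rhov, mark2a and stxbp6l.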

How the data were processed

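Whole eyes were measured on Affymetrix zebrafish arrays, 1 array per pool of 5 eyes, 2 pools for each of 6 groups (ONX and SHAM at 4, 12 and 21 days). The deposited values are signal intensities that the authors made with MAS5 (version not given), per the submitters' processing notes. Each array had a trimmed mean of 500.1. The table held 15617 probe sets. The 115 Affymetrix controls were set aside, and 10795 of the other 15502 carried 1 gene symbol in the platform annotation. No gene coordinates were used, and the aligner or probe build is not given in the sources used here.

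From these intensities log2(signal + 16) was computed, with no further normalization. The upper 60% of probe sets by mean over the 12 arrays was kept (9301 probe sets, 6984 with 1 symbol, 5967 genes). limma 3.58.1 in R 4.3.3 fitted 6 group means, with moderation along a trend (6 residual and 4.23 prior degrees of freedom) and Benjamini-Hochberg adjustment at 0.05. The number of arrays limits the precision. P-values measure the spread between pools of the same group taken over all 6 groups, those of days 4 and 12 included, and not that of day 21 alone.

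Named genes were the 10 of smallest p in each direction, 5 per interaction test, the 6 farthest above and below the other 3 for each array, the 6 widest pool gaps per label in each direction, the 4 of smallest p per list, and a fixed set of injury and retinal genes, of which per1b was not found under that symbol. Members of the lists beyond these were chosen after their values were seen. The 32 gene lists use the probe set of highest mean per gene. The arrays, genes and lists were chosen with earlier results of these data known. Pool numbers did not enter the test as pairs. The procedure was tested on simulated data.

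Alternatives were offsets of 0 (floor of 1) and 64, no filter or the upper 40%, quantile normalization, median centring, scaling to hybridisation or poly-A controls, no trend, robust moderation, array weights, a block for pool number, leaving out each array, fits to the day 21 arrays or to those of days 12 and 21, an adjusted p of 0.1, and an unadjusted p of 0.01 with a 2-fold change. Fits without the pools numbered 1 of day 12 and without all arrays of day 12 were added after seeing the data.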

Additional observations from a re-analysis of the deposited data

How the results depend on the processing

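At day 21 the count of called probe sets for ONX against SHAM was 0 in every setting run, with 2 to 169 probe sets at an unadjusted p under 0.05 (12 as reported, 169 of 15502 with no filter, 129 with array weights, 85 with the day 21 arrays alone). Leaving out each of the 12 arrays in turn gave 0 calls and 5 to 52 at the unadjusted level. With a replicate block for the pool numbers of each day, 0 probe sets were called and 7 had an unadjusted p under 0.05. The pool gaps of ONX and SHAM had r = 0.124 at day 4, -0.121 at day 12 and -0.028 at day 21. An ONX pool of day 4 carried oocyte transcripts, and the pools numbered 1 of day 12 went against their labels in gap43 and several other growth and injury genes. These values therefore cannot decide whether same-numbered pools were pairs. For the effect at day 21 against that at day 4, the count was 0 as reported, 0 to 2447 with each array left out, 622 by a 2-fold change at an unadjusted p of 0.01, 11 without the pools numbered 1 of day 12 and 10 without any array of day 12; the cause was not tested. The count for day 21 against day 12 was 0 in every setting run. Scaling to the poly-A controls moved the median difference of all probe sets to 0.119. Of 44 named genes, 5 changed sign in another setting and 16 when an array was left out, and of 32 lists' medians 13 and 25 did. None of these had passed the test. The 2 pools per label and the spread between pools, taken over the groups of all 3 days in the main fit, limit what could be called.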

Other observations

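Genes of the general machinery of the cell varied little by label. Of 72 cytosolic ribosomal protein genes, 60 had a negative difference, with a median of -0.06, and ONX pool 1 was the lowest array in 64. rps3, a protein of the small subunit, had 13.66 and 13.87 in ONX pools against 13.97 and 13.87 in SHAM pools (-0.16 ± 0.22, limma adjusted p = 1). Both ONX pools lay below both SHAM pools in 12 of the 72 (11.3% of all tested genes). Of 85 genes of the mitochondrial respiratory chain, 59 had a positive difference (median 0.04), and both ONX pools lay above both SHAM pools in 22, against 11.6% of all tested genes. ndufa8, a subunit of complex I, had 11.30 and 11.37 in ONX pools against 11.22 and 11.16 in SHAM pools (0.15 ± 0.16), and uqcrc1, of complex III, 11.58 and 11.60 in ONX pools against 11.49 and 11.41 in SHAM pools (0.14 ± 0.17). The medians were -0.01 for 49 proteasome genes, -0.04 for 42 ribosome biogenesis genes and 0.00 for 73 splicing genes. They were -0.02 for 8 chaperonin genes, -0.02 for 20 heat shock genes and -0.01 for 42 stress genes of the endoplasmic reticulum and oxidation. None of these medians shifted by as much as 0.1. Both ONX pools lay below both SHAM pools in 11 of the proteasome, 10 of the ribosome biogenesis and 12 of the splicing genes, against 11.3% of all tested genes. They lay above in 2, 4 and 9, against 11.6%.

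Clock genes had a median of 0.04 over 22 genes, and both ONX pools lay above both SHAM pools in 4, against 11.6% of all tested genes. The light-induced repressor cry1a had 9.68 and 9.73 in ONX pools against 9.67 and 9.39 in SHAM pools (0.18 ± 0.27, limma adjusted p = 1), and aanat2, which makes melatonin's precursor, 13.22 and 12.84 in ONX pools against 12.82 and 12.96 in SHAM pools (0.14 ± 0.31). Lens (9 genes, median 0.00), red blood cell (11 genes, 0.04), pigment epithelium (7 genes, 0.04) and retinal progenitor genes (22 genes, 0.04) lay near 0. The 10 lipid carriers had a median of 0.09 and split crosswise like the myelin genes in apoc1, an apolipoprotein, with 10.94 and 12.22 in ONX pools against 12.13 and 10.68 in SHAM pools (0.17 ± 0.90). Of the oocyte list 2 genes passed the filter on low signal, of 20 on the array, and their summed signal was 387 and 468 in ONX pools and 524 and 451 in SHAM pools.

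LOC100151335 had 8.70 and 6.61 in ONX pools against 8.04 and 8.21 in SHAM pools, low in ONX pool 2 alone. si:ch211-121a2.2 had 7.80 and 6.40 in ONX pools against 8.23 and 5.65 in SHAM pools, high in both pools numbered 1. The class II gene mhc2daa had 8.14 and 9.81 in ONX pools against 8.55 and 9.81 in SHAM pools, high in both pools numbered 2. niban2b, with 5.72 and 7.77 in ONX pools against 6.83 and 7.77 in SHAM pools, was also high in both pools numbered 2.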
